A study of Homo sapiens with 8 samples.

Results

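The splicing regulators described here were 44 named genes in 4 classes: 11 SR proteins, 19 hnRNP proteins, 10 other splicing regulators and 4 factors that recognise the 3′ splice site and the branch point. They were chosen by name, and their reads were summed per gene symbol among 34792 genes. All 44 passed the filter on low counts, which left 15993 genes tested. The RNA came from A673/TR/shFEZF1 cells, a derivative of the Ewing sarcoma line A673 that expresses the tetracycline repressor and carries a doxycycline-inducible shRNA against FEZF1, a transcription factor of nervous system development. A polyclonal population and clones 3, 5 and 6 were each cultured without doxycycline (control, n = 4) and with 1 µg/mL doxycycline for 72 h (n = 4), so that each origin gave 1 pair of libraries. All 8 libraries share the parental line, the repressor and the shRNA cassette. Cells without the shRNA were not analysed here, so the action of the shRNA and that of doxycycline itself cannot be told apart, and a clone descends from 1 cell.

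An intron is removed once its ends and its branch point have been recognised. SF1 binds the branch point, U2AF2 the pyrimidine tract and U2AF1 the AG at the 3′ end, after which SF3B1, in the U2 particle, takes over the branch point. SR proteins bind mostly exonic sequences and favour the use of nearby splice sites, while many hnRNP proteins bind nascent RNA and oppose it, although either family can do both. Many genes of these families hold a so-called poison exon. Its inclusion brings an early stop codon, and the transcript is then a target of nonsense-mediated decay, by which the proteins can limit their own amount. In Ewing sarcoma the fusion protein EWSR1-FLI1 is made with EWSR1, which belongs with TAF15 to one family of RNA-binding proteins.

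Depth was between 26719886 and 42422421 assigned reads, of which 89.886% to 91.119% fell on transcripts matched to a symbol. Levels are given as CPM (read counts scaled to library size, with TMM factors) where 1 gene is compared between libraries, and as TPM (scaled per transcript length as well) where genes are compared with each other. FEZF1 was at 96.4, 70.5, 107 and 74.4 CPM in the control libraries of the polyclonal population and clones 3, 5 and 6, and at 60.6, 43.0, 60.8 and 36.4 CPM with doxycycline. Every doxycycline library was below every control. In bulk RNA, fewer expressing cells and less RNA per cell cannot be told apart. The log2 fold change was -0.81 (SE 0.0726, adjusted p = 0.00594 by edgeR's quasi-likelihood test with origin as replicate block, Benjamini-Hochberg over all genes tested). Without the block the same value was -0.80 with an adjusted p of 0.29. The Ewing sarcoma markers were present, from NKX2-2 at a mean of 59.9 TPM to CD99 at 2589 TPM, and 2 of 6, NR0B1 and NKX2-2, were called higher. The summed level of 5 markers of other cell types, of which 2 passed the filter and 0 were called (both at an unadjusted p under 0.05; DESeq2 called 0), lay between 0.126 and 2.104 TPM in the controls and between 0.933 and 3.69 TPM with doxycycline. EPCAM alone reached 1.99 and 3.39 TPM, while PTPRC, ALB and MYH6 averaged 0.0293, 0.012 and 0.00303 TPM. Their part in the results was not tested.

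The poison exon of SRSF6 is shown because the share of the noncoding SRSF6 transcript was higher with doxycycline in 4 of 4 pairs, as given further on, and because the exon could be identified. The coding transcript NM_006275.6 has 4353 bases and the noncoding NR_034009.2 has 4621, a difference of 268 bases. GENCODE release 44 places 1 SRSF6 exon of exactly that length on GRCh38 at chr20:43459153-43459420, plus strand, within the transcript ENST00000483871.6, which the annotation classes as a target of nonsense-mediated decay. The match rests on length, since the deposited files hold no sequence. The sequences read from the genome are given 5′ to 3′, with the bases that the splicing machinery or the ribosome reads as signals in capitals. The first is the last 40 bases of the intron before the exon (chr20:43459113-43459152), with the AG of the 3′ splice site in capitals. The second is the start of the exon up to its in-frame stop codon in capitals (chr20:43459153-43459304). The third is the first 20 bases of the following intron (chr20:43459421-43459440), with the GT of the 5′ splice site in capitals.
SRSF6 intron before the exon: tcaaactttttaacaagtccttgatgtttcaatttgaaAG
SRSF6 poison exon to the stop: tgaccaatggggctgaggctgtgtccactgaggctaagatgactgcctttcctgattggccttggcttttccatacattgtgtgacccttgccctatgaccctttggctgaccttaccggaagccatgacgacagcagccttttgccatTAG
SRSF6 intron after the exon: GTaagtacttagtgtaaaac
Of the 38 bases before the AG, 22 were pyrimidines. The stop codon ended at base 152 of the exon, and the annotation leaves 116 bases of the exon after it.

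How abundant each regulator was is the first question the data answer. The order of levels given here holds among the 32 members of which at least 80% of the reads were matched. Among these HNRNPA1 was the most abundant, at 1619 ± 162 TPM without and 1575 ± 158 TPM with doxycycline (mean and SD, n = 4 in either condition, as for all values given this way). HNRNPA1 shuttles between nucleus and cytoplasm and often represses exons. It has near-identical copies elsewhere in the genome, so its reads may be divided among them. Of its reads 50.2% lay on the noncoding NR_135167.2, of 1255 bases, and 45.9% on the coding NM_002136.4, of 3588 bases. Since TPM is scaled per length, its TPM rests largely on the short noncoding transcript. The order given here is for all matched transcripts of a gene, and coding transcripts alone were not ranked. HNRNPC, which binds uridine tracts, followed at 769 ± 30.2 and 759 ± 31.5 TPM, and HNRNPK, which binds cytidine-rich RNA, at 539 ± 36.8 and 518 ± 22.2 TPM. These 3 did not overlap with each other in any library. HNRNPAB (456 TPM on average) and HNRNPH1 (456 TPM on average) came next and were not separated by their spread. Among the SR proteins SRSF7 had 338 ± 3.08 TPM in the controls, SRSF9 329 ± 15.3 TPM and SRSF2 325 ± 26.3 TPM, and these 3 neighbours lay within each other's spread. With doxycycline they were at 351 ± 21.8, 328 ± 8.05 and 293 ± 52.4 TPM. SRSF7 had 57.0% of its reads on XM_005264485.2, of 1017 bases, which weighs likewise in its TPM. In reads SRSF1 was above it, at 560 against 230 CPM in the controls. SRSF8 was the least abundant SR gene, at 8.20 TPM on average.

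**Figure D1:**
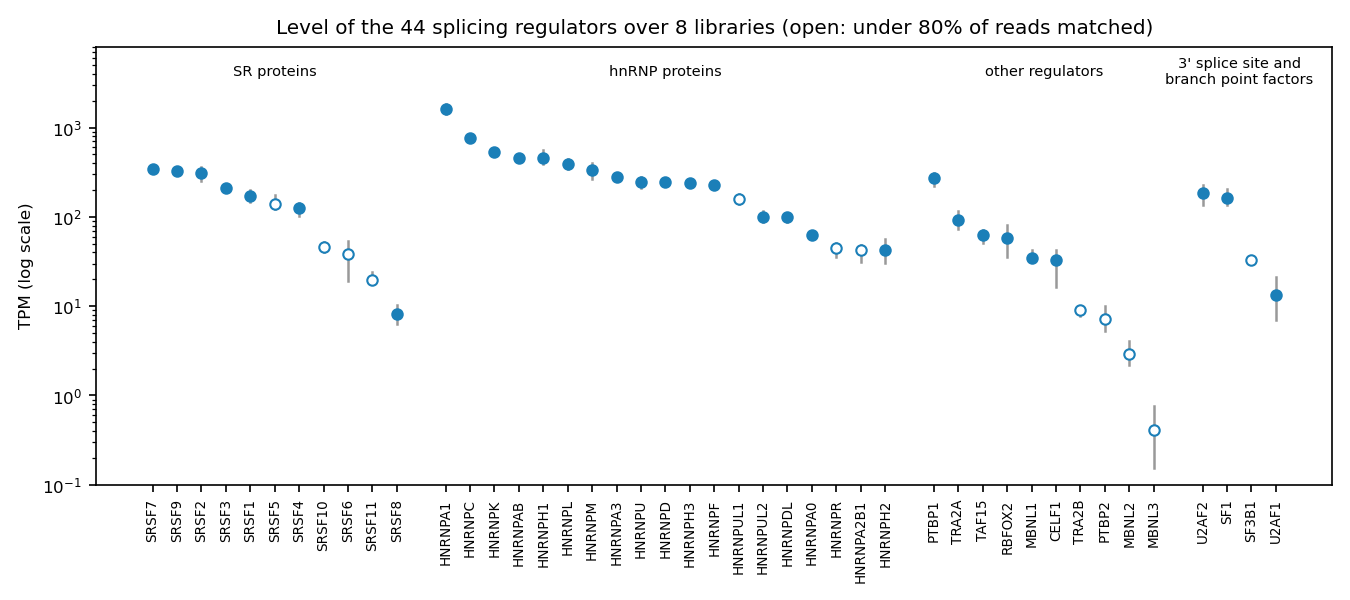
The plot of levels gives, for each of the 44 genes, the mean TPM over 8 libraries (points, log scale) and the lowest to highest library (lines), by class, with open points for genes of which under 80% of the reads were matched. The matched reads put HNRNPA1 at 1597 TPM and MBNL3 at 0.410 TPM, the latter from 7.92% of its reads, so that open points understate their genes.

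Among the other regulators PTBP1, a repressor of neuronal exons, had 282 ± 26.9 TPM in the controls and 264 ± 30.3 TPM with doxycycline. TRA2A, an SR-like activator, had 93.4 ± 9.93 and 90.2 ± 20.4 TPM. TAF15 had 64.4 ± 5.95 and 60.2 ± 6.49 TPM. PTBP2, the neuronal relative of PTBP1, was listed at 7.24 TPM on average. U2AF2 had 199 ± 24.0 TPM in the controls and SF1 162 ± 15.3 TPM, which was within their spread, while SF3B1 was listed at 32.7 ± 3.03 TPM. The reads of 12 members were matched in part only, under 80% of the mean in the authors' own table, because predicted transcripts could not be assigned to a symbol. HNRNPA2B1 (3.02% matched), TRA2B (7.32%), MBNL3 (7.92%), SF3B1 (17.4%), SRSF11 (20.9%), HNRNPR (24.9%), PTBP2 (47.3%), SRSF6 (49.2%), HNRNPUL1 (60.9%), MBNL2 (70.5%), SRSF5 (76.1%) and SRSF10 (77.8%) are therefore described by the matched transcripts alone, and their levels understate the genes. U2AF1 was matched but is uncertain for another reason, since a near-identical copy on the same chromosome can take its reads.

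The main comparison asked whether these genes changed when the shRNA was induced. Of the 44 members 3 were called at an adjusted p under 0.05 (6.82%), and of all genes tested 7.63% were called (edgeR with the block). The members' share was thus near the background. All 3 were lower, where 3.91% of all genes were called lower. They were HNRNPH2, a G-tract binding hnRNP protein, U2AF2, and MBNL3, a member of the muscleblind family of CUG-binding proteins. The median log2 fold change of the members was -0.04 and that of all genes tested 0.00. In size most members stayed near 0, with 39 of 44 within 0.2 of it on the log2 scale, against 9598 of the 15993 genes. This was not particular to the members, since 46 of 48 core spliceosome genes also lay within 0.2. The lowest mean level was 0.410 TPM among the members and 0.030 TPM among all genes tested. The part of abundance was not tested. A single direction in 4 of 4 pairs was seen for 16 members, 5 higher and 11 lower, or 36.4%, against 33.3% of all genes. In 0 of 44 members did all doxycycline libraries lie on one side of all controls, which 4.94% of all genes did. The standard errors of the 44 fold changes had a median of 0.0566 and reached 0.291 in U2AF1. The smallest change called was that of U2AF2, at -0.22 (SE 0.0509), while SRSF2 at -0.18 (SE 0.0637) was not called. Changes under about 0.2 could thus go uncalled in most members. Each origin gave 1 library per condition. The p-values weigh the change over the 4 origins against a variance that edgeR estimates partly from all genes tested, not from the gene's own spread alone.

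**Figure D2:**
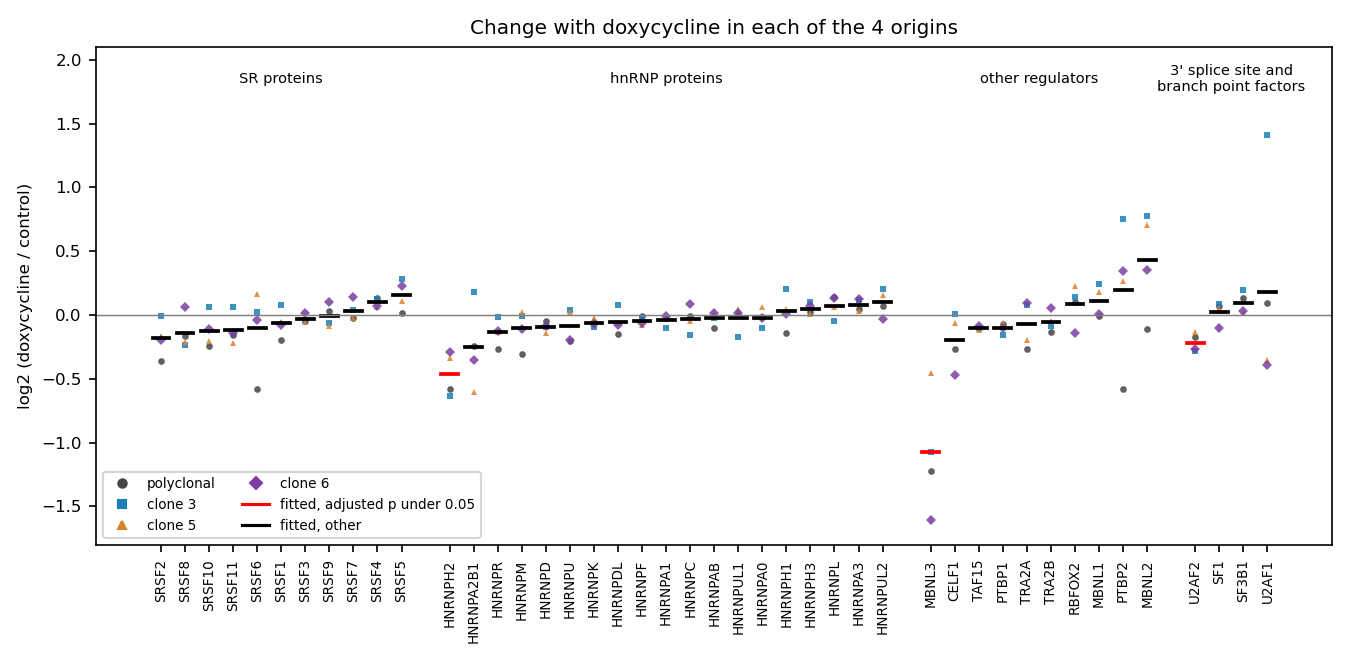
The plot of changes shows, for each gene, the log2 ratio of doxycycline to control CPM in each of the 4 origins (symbols) and the fitted log2 fold change (bars, red where the adjusted p was under 0.05). Most genes lie near 0, and HNRNPH2, MBNL3 and U2AF2 have all 4 symbols below it.

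HNRNPH2 (X:101408222-101414133, GRCh38) was at 65.2, 64.8, 51.4 and 77.0 CPM in the control libraries of the polyclonal population and clones 3, 5 and 6. With doxycycline it was at 43.5, 41.7, 40.8 and 63.1 CPM. It was lower in 4 of 4 pairs, but the doxycycline library of clone 6 lay above the control of clone 5, so the groups overlapped. On average 64.6 ± 10.5 CPM became 47.3 ± 10.6 CPM (SD over the 4 origins), and HNRNPH2 fell by 0.46 on the log2 scale (SE 0.0773, adjusted p = 0.018 by edgeR). Leaving out 1 pair moved the adjusted p to between 0.0441 and 0.058, and 0.0544, 0.0553 and 0.058 were reached without the polyclonal population, clone 3 and clone 5. HNRNPH1, its close relative, is far more abundant (456 against 42.3 TPM) and had a log2 fold change of 0.03 (SE 0.0639, adjusted p = 0.828 by edgeR). HNRNPH1 and HNRNPH2 are similar in sequence, so reads can be divided between them. HNRNPH3, the third of this group, was at a log2 fold change of 0.05 (adjusted p = 0.576 by edgeR).

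U2AF2 (19:55655035-55674716) had 323, 417, 386 and 327 CPM in the controls and 286, 343, 351 and 271 CPM with doxycycline, in the same order of origins. It was lower in every pair, by the least in clone 5, and the groups overlapped. The mean fell from 363 ± 46.4 to 313 ± 40.1 CPM, a log2 fold change of -0.22 (SE 0.0509, adjusted p = 0.0451 by edgeR). The call was lost without any single pair, the adjusted p then lying between 0.1 and 0.133, the values without clone 3 and without clone 6. The other factors of the same step were not called. SF1 had a log2 fold change of 0.03 (SE 0.0533), SF3B1 0.09 (SE 0.0557, in matched reads only) and U2AF1 0.18 (SE 0.291), and U2AF1 ranged from 3.65 to 11.4 CPM in the controls alone.

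MBNL3 (X:132369320-132490035) was close to the lower limit of the data. It had 2.43, 2.93, 4.68 and 5.39 CPM in the controls and 1.04, 1.40, 3.42 and 1.77 CPM with doxycycline. It was lower in 4 of 4 pairs. The mean fell from 3.86 ± 1.41 to 1.91 ± 1.05 CPM, a log2 fold change of -1.07 (SE 0.222, adjusted p = 0.0318 by edgeR). These values cover the 7.92% of reads that could be matched, and the call was lost without any single pair, with an adjusted p between 0.0547 (without clone 5) and 0.115 (without clone 6). MBNL2, also of this family, went the other way in size without passing the test. It had 6.05, 6.30, 6.64 and 7.88 CPM in the controls and 5.62, 10.8, 10.8 and 10.1 CPM with doxycycline, higher in the 3 clones and not in the polyclonal population (log2 fold change 0.43, SE 0.167, adjusted p = 0.16 by edgeR). MBNL1, the most abundant of the family, was at a log2 fold change of 0.11 (SE 0.0617, adjusted p = 0.334 by edgeR).

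**Figure D3:**
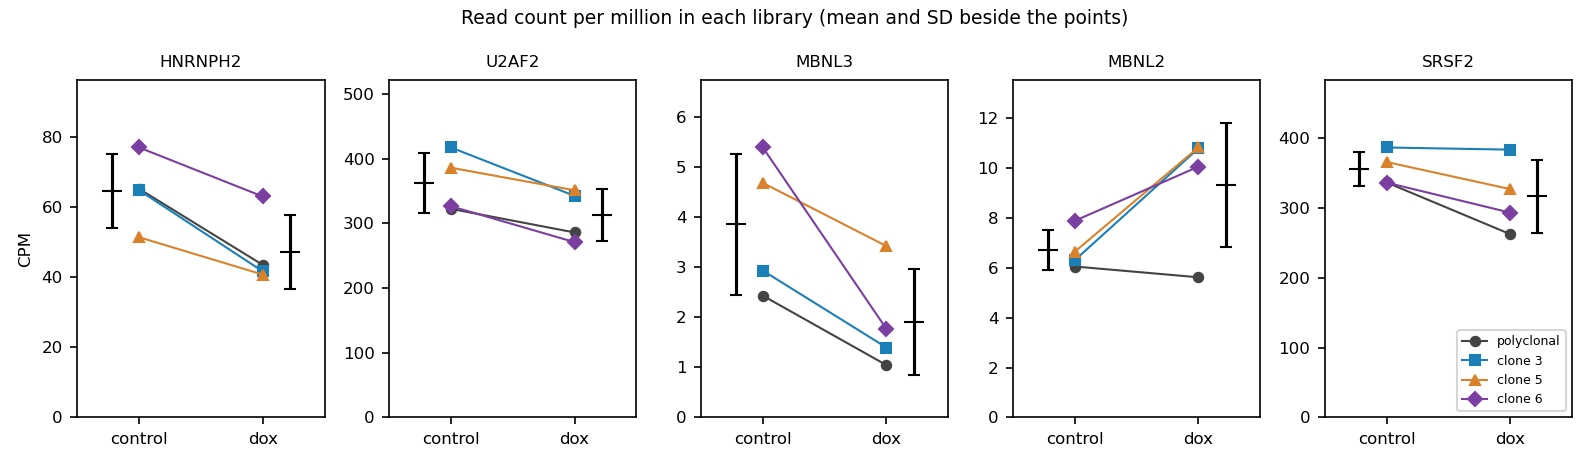
The plot of CPM in each library joins the control and doxycycline libraries of an origin by a line for HNRNPH2, U2AF2, MBNL3, MBNL2 and SRSF2, with the mean and SD (n = 4) beside the points. The doxycycline point is the lower one in every origin except for MBNL2, which is higher with doxycycline in the 3 clones.

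Of the 11 SR proteins 0 were called by edgeR, and DESeq2 with the block called 1, SRSF2. By edgeR 2 of the 11 had an unadjusted p under 0.05, as did 7 of the 44 members and 3970 of the 15993 genes. SRSF2, which binds exonic elements rich in G and C, had 337, 387, 366 and 336 CPM in the controls and 263, 384, 327 and 293 CPM with doxycycline. It was lower in 4 of 4 pairs, by almost nothing in clone 3 (log2 ratio -0.01) and by the most in the polyclonal population (-0.36). The log2 fold change was -0.18 (SE 0.0637, adjusted p = 0.128 by edgeR and 0.029 by DESeq2). SRSF5 was at a log2 fold change of 0.16 (SE 0.0609, adjusted p = 0.156 by edgeR) and was higher in 4 of 4 pairs, as was SRSF4 at 0.10 (SE 0.0481). SRSF1, the founding member of the family, was at -0.06, SRSF3 at -0.03, SRSF7 at 0.03 and SRSF9 at 0.00, with SE between 0.0466 and 0.0573. SRSF6, SRSF8, SRSF10 and SRSF11 were between -0.10 and -0.14. Over the class the log2 fold changes ran from -0.18 to 0.16.

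Apart from HNRNPH2 the hnRNP proteins ranged from -0.25 to 0.10 on the log2 scale and none of the other 18 was called by edgeR or by DESeq2. DESeq2 gave 4 of the 19 an unadjusted p under 0.05, as it did 11 of the 44 members. The count over all genes at that threshold is not given for DESeq2, so no excess can be read from these counts. HNRNPA1 had 1486, 1500, 1697 and 1923 CPM in the controls and 1459, 1395, 1675 and 1911 CPM with doxycycline, a log2 fold change of -0.04 (SE 0.047, adjusted p = 0.661 by edgeR). The differences between origins were larger than those within pairs. HNRNPC was at -0.03 (SE 0.0552) and HNRNPK at -0.06 (SE 0.0464). HNRNPA2B1, from the 3.02% of its reads matched, was at -0.25 (SE 0.116, adjusted p = 0.226 by edgeR) and was higher in clone 3. HNRNPD, HNRNPF, HNRNPK, HNRNPR and HNRNPA1 were lower in 4 of 4 pairs and HNRNPA3 and HNRNPH3 higher in 4 of 4. All their fitted log2 fold changes were under 0.14 in size, while HNRNPR reached a log2 ratio of -0.26 in the polyclonal population.

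Of the remaining regulators TAF15 had 74.4, 80.2, 90.02 and 72.5 CPM in the controls and 69.5, 74.6, 83.0 and 68.3 CPM with doxycycline. The 4 pairs were alike in direction and in size, with log2 ratios between -0.12 and -0.09, and the fit gave -0.10 (SE 0.0516, adjusted p = 0.273 by edgeR). PTBP1 was lower in 4 of 4 pairs at -0.10 (SE 0.0473, adjusted p = 0.248 by edgeR). PTBP2 was lower in the polyclonal population and higher in the 3 clones, with a log2 fold change of 0.20 (SE 0.194). TRA2A was at -0.07 (SE 0.0757) and TRA2B, from 7.32% of its reads, at -0.06 (SE 0.0737).

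RBFOX2 and CELF1 differed more between origins than between conditions. RBFOX2, a UGCAUG-binding regulator of neuronal and mesenchymal exons, had 262 and 249 CPM in the controls of the polyclonal population and clone 5 against 151 and 162 CPM in those of clones 3 and 6. With doxycycline the same split held, at 282 and 292 against 167 and 147 CPM, and the log2 fold change was 0.09 (SE 0.0675). CELF1, a GU-rich element binding protein, was lowest in clone 6 in both conditions, at 117 and 84.6 CPM, where the other 6 libraries lay between 154 and 193 CPM. Its log2 fold change was -0.20 (SE 0.0821, adjusted p = 0.192 by edgeR). SRSF6 also followed origin, at 70.7, 134, 81.2 and 120 CPM in the controls and 47.3, 136, 91.0 and 117 CPM with doxycycline. Over the 44 members the highest control exceeded the lowest by a median of 0.28 on the log2 scale, against a median size of 0.09 for the change with doxycycline. The former is a range of single libraries and the latter a fit over all pairs, so they are unlike measures.

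The isoform comparison asked whether the transcripts of a regulator changed in proportion to each other. A transcript's share is its percentage of all estimated reads of its gene. The 44 members had 459 matched transcripts, 190 of them from 40 genes passed the filter, and 0 were called by edgeR's transcript-level test with the block, beside 0.0417% of the 31190 transcripts tested. Of the member transcripts 4 had an unadjusted p under 0.05, as did 599 of all transcripts tested. A test by limma on the log2 odds of the share also called 0, with 11 unadjusted. For limma the unadjusted count over all transcripts is not given. The lowest adjusted p was 0.594, for NR_138470.2 of HNRNPA3. With at least 10 reads required in every library that transcript alone of 125 member transcripts was called (adjusted p = 1.8e-05 by edgeR), beside 0.0125% of the 16013 transcripts tested that way. Among the member transcripts tested with a mean share of at least 5%, 20 of 116 (17.2%) moved in a single direction in 4 of 4 pairs, against 14.2% of all such transcripts.

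HNRNPA3, an A/B-type hnRNP protein, had 3.67%, 11.2%, 11.2% and 9.66% of its reads on NR_138470.2 in the controls of the polyclonal population and clones 3, 5 and 6. With doxycycline the shares were 6.13%, 18.0%, 21.0% and 19.5%. The share was higher in 4 of 4 pairs, and the polyclonal population lay below the 3 clones in both conditions. The mean was 8.94% ± 3.59 without and 16.2% ± 6.80 with doxycycline, from 2858 reads per library on average. The 3 main coding transcripts, NM_194247.3, NM_001330249.1 and NM_001330247.1, were each lower in 4 of 4 pairs, by 3.39, 2.60 and 1.71 percentage points on average, while the gene as a whole was at a log2 fold change of 0.08 (SE 0.0479). NM_194247.3 went from 37.7% ± 3.22 to 34.3% ± 5.38.

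Transcripts without an annotated reading frame were also summed per gene, since poison exon forms are among them. This noncoding share could be tested in 10 members of the 1824 genes that had reads of both kinds, and 0 were called by limma, as were 0.0% of all genes tested (2 members and 82 genes at an unadjusted p under 0.05). The noncoding share was higher in 4 of 4 pairs in 2 of the 10 members, SRSF6 and HNRNPA3, beside 9.48% of all genes tested. For SRSF6 all noncoding reads lay on NR_034009.2, the transcript longer by the 268 bases of the exon shown above. It held 15.6%, 6.87%, 16.8% and 11.8% of the matched SRSF6 reads in the controls and 25.7%, 16.3%, 21.2% and 17.2% with doxycycline. The doxycycline library of clone 3 remained under the control of clone 5, so the groups overlapped. The mean was 12.8% ± 4.48 in the controls and 20.1% ± 4.32 with doxycycline, a change in log2 odds of 0.84 (SE 0.285, unadjusted p = 0.0394, adjusted p = 0.858 by limma). The share rests on 459 noncoding reads per library on average and on the 49.2% of SRSF6 reads that were matched. For HNRNPA3 the change in log2 odds was 0.96 (SE 0.238, unadjusted p = 0.014, adjusted p = 0.858 by limma).

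The other noncoding shares differed from gene to gene and showed no single direction. SRSF3, a small SR protein known to promote its own poison exon, had 42.6%, 34.3%, 44.5% and 33.4% in the controls and 38.5%, 39.3%, 40.3% and 31.2% with doxycycline, for means of 38.7% ± 5.66 and 37.3% ± 4.13. SRSF2 had 18.6% ± 3.56 and 19.8% ± 3.47. HNRNPDL, whose own exon inclusion is likewise known to lead to decay, had 13.8% ± 5.65 and 13.2% ± 4.52, and ranged from 7.61% to 21.5%. HNRNPA1 had 50.3% ± 0.725 and 50.1% ± 1.26. Its noncoding transcript, NR_135167.2, has 1255 bases and is shorter than the coding NM_002136.4, of 3588 bases. The value is therefore a share of reads and not of molecules. SRSF8 had 11.2% ± 0.996 and 11.8% ± 6.16, from 73.5 noncoding reads per library on average. The matched reads of HNRNPA2B1 were noncoding to 49.1% ± 18.3 and 46.3% ± 17.7, a value that holds for 3.02% of the gene. SRSF1 stayed low, between 1.54% and 4.39%.

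Shares of single coding transcripts followed origin in some genes. TRA2A NM_001362761.2 held 23.1% and 21.4% of reads in the controls of the polyclonal population and clone 5 and 9.06% and 4.73% in those of clones 3 and 6, and with doxycycline 20.04% and 23.4% against 11.99% and 2.90%. Both conditions gave the same split of origins. SRSF2 NM_001195427.2 was highest in clone 6, at 65.3% and 66.3%, where the other 6 libraries lay between 46.5% and 55.5%. In HNRNPH3 the share of NM_001322439.1 was higher in 4 of 4 pairs, 10.6% ± 5.82 in the controls and 18.8% ± 2.30 with doxycycline, with the lowest share of all, 2.71%, in the control of clone 5 (unadjusted p = 0.0519, adjusted p = 1.0 by edgeR). HNRNPR XM_011540476.3 was higher in 4 of 4 pairs, 53.4% ± 2.61 and 64.0% ± 5.44 of the 24.9% of reads matched (adjusted p = 1.0 by edgeR).

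**Figure D4:**
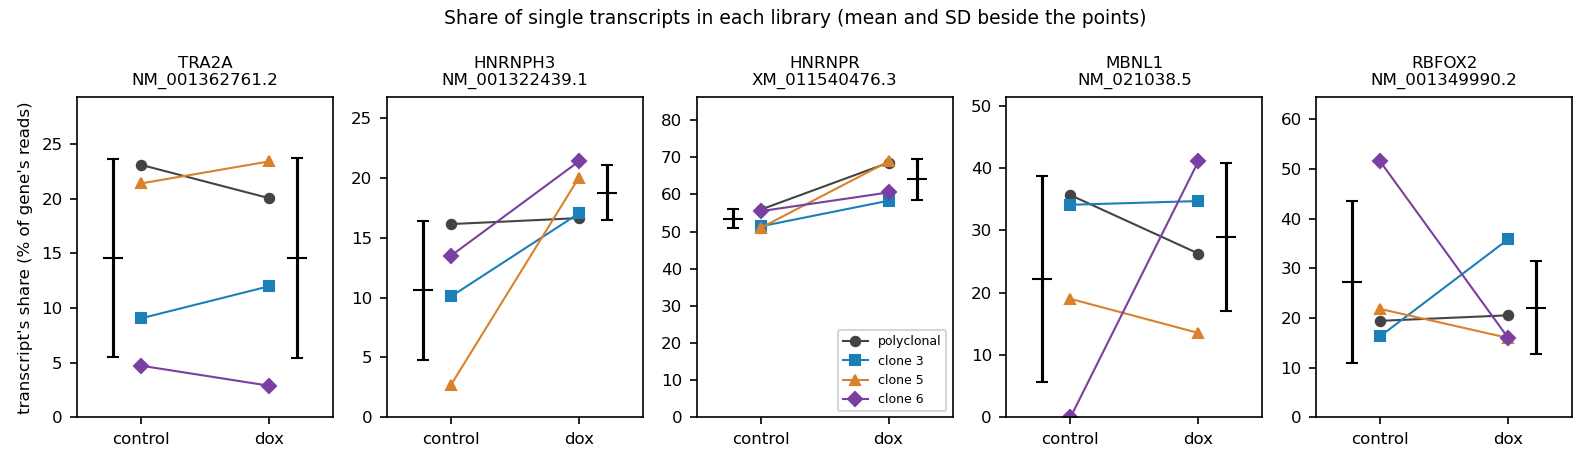
The plot of transcript shares joins the control and doxycycline libraries of each origin for 5 transcripts (percent of the gene's reads), with the mean and SD (n = 4) beside the points. TRA2A NM_001362761.2 is high in the polyclonal population and clone 5 in both conditions, and MBNL1 NM_021038.5 and RBFOX2 NM_001349990.2 change rank between libraries.

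In some genes the shares were not stable enough to read. Of the 123 member transcripts with a mean share of at least 5%, 23 in 8 genes were listed at 0 in 1 library or more and above 10% in another. RBFOX2 held 7 of them, MBNL3 and CELF1 4 each, MBNL1 3 and SRSF5 2, and MBNL2, PTBP2 and HNRNPA2B1 1 each. MBNL1 NM_021038.5, for example, was at 35.7%, 34.1%, 19.0% and 0% in the controls. CELF1 has 92 matched transcripts and RBFOX2 38, but HNRNPH1 with 33 held 0 such transcripts and MBNL2 with 3 held 1. The cause was not tested. By contrast the major transcripts of U2AF2, TAF15, PTBP1, SRSF7 and HNRNPU kept their order in all 8 libraries. U2AF2 NM_001012478.1 lay between 72.8% and 77.4%, with an adjusted p for its change of share of 1.0 by edgeR.

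Genes that act with the regulators were counted in the same fit, against the 7.63% of all genes called. Of 7 tested kinases of SR proteins 2 were called, SRPK2 and CLK3, both higher. The kinases had no common direction, with 3 estimates higher and 4 lower. Their median log2 fold change was -0.055 and the lowest -0.372. SRPK2, which phosphorylates SR proteins in the cytoplasm, had 101, 95.5, 83.8 and 117 CPM in the controls and 136, 131, 128 and 147 CPM with doxycycline. The groups did not overlap, and the log2 fold change was 0.46 (SE 0.0603, adjusted p = 0.00921 by edgeR). CLK3, a nuclear kinase of the same substrates, rose from 39.9 ± 5.16 to 48.0 ± 7.01 CPM (log2 fold change 0.26, adjusted p = 0.0459 by edgeR). Of 48 core spliceosome genes 1 rose, PLRG1 of the PRP19 complex (log2 fold change 0.26, adjusted p = 0.0433 by edgeR). Among other RNA-binding splicing factors RBM17 rose (log2 fold change 0.26, adjusted p = 0.0433 by edgeR, from the 73.0% of its reads matched). Without the block edgeR called 0 of the kinases and 0 of the core spliceosome genes (1 of each at an unadjusted p under 0.05), and DESeq2 with the block called 2 and 3. Of all genes DESeq2 with the block called 1920, against 1221 by edgeR. Of 14 factors of nonsense-mediated decay 0 were called by edgeR and 1 by DESeq2. By edgeR 3 of them had an unadjusted p under 0.05, beside 3970 of the 15993 genes.

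Genes with exons that these regulators are known to control were a last list of 29. At gene level 3 were called, MAPT and TPM3 higher (log2 fold changes 0.54 and 0.26, adjusted p = 0.0197 and 0.0321 by edgeR) and FN1 lower (-0.40, adjusted p = 0.0218 by edgeR). DESeq2 with the block called 7 of the 29, beside 1920 of all genes, where edgeR called 1221. Without the block edgeR called 0 of the 29, with 2 at an unadjusted p under 0.05. Of their 131 tested transcripts 0 were called for share by edgeR, 6 of them (4.58%) at an unadjusted p under 0.05, against 1.92% of all transcripts tested. A test by limma on the log2 odds called 0 with 7 unadjusted, a count given without that over all transcripts.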

How the data were processed

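Polyadenylated RNA of the 8 libraries was sequenced with a stranded mRNA kit (paired-end). The authors quantified it with Salmon against RefSeq transcripts of GRCh38 and deposited estimated counts and TPM of 158867 transcripts per library with their lengths. In their deposited DESeq2 table (2.11.40.6 in the submitters' processing notes) the mean signal of normalized counts per gene was used only to see how many reads had been matched, and its columns of fold changes and p-values were not used. Of the transcripts 115325 (72.592%) were matched to a symbol through RefSeq gene tables of GRCh38.p14. Estimated counts were summed per symbol, rounded, filtered (filterByExpr), scaled (TMM) and tested with edgeR 4.0.16 in R 4.3.3, with origin as replicate block and Benjamini-Hochberg adjustment at 0.05. The 2 cultures of an origin come from the same cells, and their deviations correlated at 0.406 to 0.59, against -0.395 to 0.179 between origins. Shares were tested with edgeR's diffSpliceDGE, noncoding (NR, XR) against coding (NM, XM) reads with limma 3.58.1 on log2 odds (pseudocount 0.5, at least 10 mean reads of each kind). DESeq2 1.42.0 was an alternative. The scripts were tested on simulated data, in which the smallest changes of share that were planted were mostly missed. The share changes given for HNRNPA3 and SRSF6 were smaller than any planted, so the share tests do not exclude changes of that size. Members, lists and tests were chosen with earlier results of these data known. Described in full were called members, the 3 with the highest TPM per class and the 6 with the largest change, noncoding shares of at least 5%, and up to 4 called genes of each other list. Further members and single transcripts were named after their values had been seen. CPM and TPM measure RNA relative to all RNA sequenced. The list of other RNA-binding splicing factors is not reported here in full.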

Additional observations from a re-analysis of the deposited data

Results flagged for a closer look

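In 52 groups of 4 libraries (FEZF1, the named members' CPM and the noncoding shares), 3 held a library apart from the other 3 by Dixon's criterion, where chance gives 1 in 20, or about 2.6. With doxycycline, HNRNPH2 was at 63.1 CPM in clone 6, the others lying between 40.8 and 43.5 CPM. MBNL2 was at 5.62 CPM in the polyclonal population with doxycycline, the others lying between 10.1 and 10.8 CPM. HNRNPC was at 1314 CPM in clone 6 with doxycycline, the others lying between 1067 and 1107 CPM. Clone 6 with doxycycline was also the shallowest library, at 26719886 assigned reads, and the part of depth was not tested.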

How the results depend on the processing

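By edgeR with the block 3 members were called. With no replicate block the count was 0 (2 at an unadjusted p under 0.05, and 1 gene called of all). DESeq2 without the block called 0 members (2 unadjusted) and 231 of all genes. Curated transcripts only gave 1 member and 493 of all genes. Without 1 pair of libraries the count was between 0 and 1, the 0 being reached without the polyclonal population, clone 3 or clone 5. Of all genes 699, 461 and 175 were called in these 3 fits, and 230 without clone 6. The calls thus became fewer over all genes as well. DESeq2 with the block gave 4 and called 1920 of all genes, against 1221 by edgeR. The remaining filters and scalings gave 2 or 3 members, with between 1161 and 1692 of all genes called. Among the members with at least 80% of reads matched the count was 2, a check chosen after seeing the data. Without the block FEZF1 was at -0.80 (adjusted p = 0.29, edgeR), and without 1 pair it lay between -0.86 and -0.74. The count of member transcripts called for share, 0, became 1 with at least 10 reads in every library and lay between 0 and 1 without 1 pair, the 1 being XR_001744671.2 of HNRNPA2B1 without the polyclonal population. The count for the noncoding share was 0 under each alternative run, with an adjusted p for HNRNPA3 between 0.411 (limma with a variance trend, chosen after seeing the data) and 0.997. Of 295 pairs of a single result and an alternative, 263 kept direction and side of the threshold, 20 lost the call, 2 gained it (SRSF2 by DESeq2 and NR_138470.2 with the filter of 10 reads) and 10 turned direction, all 10 in uncalled results. SRSF7 turned to -0.038 with curated transcripts only. Without 1 pair, the log2 fold change lay between -0.002 and 0.05 in SRSF7, -0.039 and 0.016 in SRSF9, and -0.07 and 0.011 in HNRNPC, and the change in noncoding log2 odds between -0.461 and 0.407 in SRSF8, -0.026 and 0.006 in HNRNPA1, -0.346 and 0.161 in HNRNPA2B1, and -0.148 and 0.048 in HNRNPDL. The cause was not tested. Depth bears on MBNL3 and U2AF1, both at low CPM, and on the noncoding shares of PTBP2 and SRSF8, which rest on 11.5 and 73.5 noncoding reads per library on average.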
